A study of Mus musculus with 3 samples.

Results

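Immunoglobulin V genes are the germline segments that encode most of the antigen-binding domain of antibody heavy and light chains. The members were all genes that GENCODE M21 annotates on GRCm38 as immunoglobulin V genes with a symbol starting Ighv (heavy chain), Igkv (kappa light chain) or Iglv (lambda light chain). Of the 22457 genes counted, 213 were such V genes, 113 of the heavy chain, 97 of the kappa chain and 3 of the lambda chain. The annotation holds 216, and the 3 others were not analysed here. The V genes were measured by polyA plus RNA-seq of primary regulatory T cells, CD4 T cells that restrain immune responses and are marked by the transcription factor Foxp3. The cells came from adult mice aged 4 months and their labelled origin is haematopoietic, in bone marrow. No label states a strain, a genotype or a treatment, nor how the cells were isolated or how many animals were used. The 3 libraries are labelled technical replicates 1, 2 and 3 of biological replicate 1, so there was 1 group. The labels do not say whether the libraries came from the same cells or animals. Most of the more abundant V genes and some constant genes, such as Igha, differed many-fold between the libraries. Whether these differences come from the source of the libraries was not tested. Every p-value measures the spread between these libraries, whatever their source.

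A developing B cell joins a V gene to a J segment, and on the heavy chain also to a D segment. The B cell and its descendants then transcribe the same rearranged V gene, so that the set of V genes in a sample reflects which B cell clones gave RNA. Plasma cells, the antibody-secreting descendants of B cells, hold far more immunoglobulin mRNA per cell than resting B cells. Mature T cells express rearranged T cell receptor genes instead, and V genes of the immunoglobulin loci are not part of the regulatory T cell programme.

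The coding end of a V gene carries the part that joins the next segment. The last 60 annotated coding bases are shown for 11 V genes that led a chain in a library or came next in level, 5′ to 3′ on the coding strand, from GENCODE M21 transcripts (GRCm38). Capitals mark the codons for tyrosine, tyrosine or phenylalanine, and the conserved second cysteine of the V domain, found as TANTNNTGT or TANTNNTGC on the coding strand within the last 40 coding bases.
Ighv4-1: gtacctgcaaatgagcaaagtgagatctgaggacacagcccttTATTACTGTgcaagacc
Ighv9-4: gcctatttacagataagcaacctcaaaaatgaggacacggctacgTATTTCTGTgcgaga
Ighv3-6: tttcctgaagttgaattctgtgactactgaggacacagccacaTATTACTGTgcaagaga
Ighv5-9-1: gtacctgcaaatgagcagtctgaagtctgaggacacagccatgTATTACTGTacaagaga
Ighv5-4: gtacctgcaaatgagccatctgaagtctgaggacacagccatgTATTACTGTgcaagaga
Igkv6-15: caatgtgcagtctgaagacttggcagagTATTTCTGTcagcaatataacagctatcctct
Igkv5-39: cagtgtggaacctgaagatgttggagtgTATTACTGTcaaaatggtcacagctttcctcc
Igkv19-93: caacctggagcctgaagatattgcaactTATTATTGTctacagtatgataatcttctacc
Iglv1: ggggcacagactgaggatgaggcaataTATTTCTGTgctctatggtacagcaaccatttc
Iglv2: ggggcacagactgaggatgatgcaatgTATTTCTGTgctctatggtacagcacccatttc
Iglv3: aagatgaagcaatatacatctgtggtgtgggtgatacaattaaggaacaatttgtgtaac

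The search found no motif in Iglv3, which led the lambda chain in library 1 and is shown without capitals. The motif stood in 204 of the 213 V genes (95.8%), ending in TGT in 169 and in TGC in 35. The same search found it in 161 of 21861 protein-coding genes (0.736%). In the 5 heavy chain ends a few bases follow the cysteine codon, since D and J segments supply the rest of the third hypervariable loop. The ends of Iglv1, Iglv2 and the 3 kappa genes carry a longer stretch after it, because light chain V genes themselves encode most of that loop. Ighv4-1 lies at chr12:113948282-113948796, Ighv9-4 at chr12:114299961-114300389, Ighv3-6 at chr12:114288152-114288582, Ighv5-9-1 at chr12:113736111-113736630 and Ighv5-4 at chr12:113597446-113597977. Igkv6-15 lies at chr6:70406469-70406992, Igkv5-39 at chr6:69900424-69900977, Igkv19-93 at chr6:68736297-68736780, Iglv1 at chr16:19085017-19085500, Iglv2 at chr16:19260401-19260859 and Iglv3 at chr16:19241207-19241690. All 11 are on the minus strand. Leading genes among them carry the identifiers ENSMUSG00000076655 (Ighv4-1), ENSMUSG00000094322 (Ighv9-4), ENSMUSG00000076672 (Ighv3-6), ENSMUSG00000094797 (Igkv6-15), ENSMUSG00000076569 (Igkv5-39) and ENSMUSG00000076934 (Iglv1).

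The libraries held 3206781, 3228215 and 2872350 gene counts. Levels are given in CPM, counts per 1000000 gene counts of a library, and values over the libraries as mean ± SD (n = 3). A floor of 3 counts, the limit that a count of 0 allows, equalled 0.936, 0.929 and 1.04 CPM in libraries 1, 2 and 3. Intervals are 95% exact binomial (Clopper-Pearson) and, like floors, cover counting error only. Foxp3 had 142, 157 and 150.4 CPM and did not differ between the libraries by the test used below (chi-square, adjusted p = 0.623). Neither a strand setting nor the handling of reads that match several genes is stated, so counts of near-identical V genes are uncertain. A coding sequence at least 97% identical to another V gene was present in 36 of the 213 V genes.

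V gene transcripts were found in every library and were most abundant in library 2. The V genes together had 1528 counts (476 CPM) in library 1, 2994 counts (927 CPM) in library 2 and 1386 counts (483 CPM) in library 3. Library 2 thus stood above the others, which were close to each other, and the mean was 629 ± 259 CPM. In bulk RNA, fewer cells of a type and less RNA per cell cannot be told apart.

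Kappa V genes gave most of the V counts in each library. Their 960, 2052 and 895 counts in libraries 1, 2 and 3 were 62.8% (60.3 to 65.3), 68.5% (66.8 to 70.2) and 64.6% (62.0 to 67.1) of V counts, on average 65.3 ± 2.93%. Heavy V genes had 539, 900 and 387 counts, or 35.3% (32.9 to 37.7), 30.1% (28.4 to 31.7) and 27.9% (25.6 to 30.4), on average 31.1 ± 3.78%. The order kappa, heavy, lambda was the same in all 3 libraries. Lambda V genes had 29, 42 and 104 counts, or 1.90% (1.27 to 2.71), 1.40% (1.01 to 1.89) and 7.50% (6.17 to 9.02). Library 3 was thus high in lambda, and its interval did not overlap those of the other libraries. There were 33.1 and 48.9 kappa counts per lambda count in libraries 1 and 2, and 8.61 in library 3. Per length, the mean shares were 30.2% heavy, 66.4% kappa and 3.44% lambda.

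A small number of V genes held most of the heavy and kappa counts. The 3 leading heavy V genes held 83.1%, 48.7% and 51.4% of heavy V counts in libraries 1, 2 and 3, and the 3 leading kappa V genes 81.0%, 45.3% and 42.9% of kappa V counts. The inverse Simpson index, which gives the number of equally used genes that would be as concentrated, was 4.02, 8.77 and 9.66 for heavy and 4.11, 10.2 and 11.5 for kappa V genes. By these measures heavy and kappa V use was narrowest in library 1. At least 50% of heavy V counts fell on 2, 4 and 3 genes in libraries 1, 2 and 3, and at least 50% of kappa V counts on 2, 4 and 4 genes. At least 90% fell on 12, 10 and 26 heavy and on 10, 13 and 23 kappa genes, and by this measure library 2 was the narrowest in the heavy chain. The lambda chain ran the other way, with an index of 2.71, 2.41 and 1.68, highest in library 1.

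Beneath these leading genes lay a long tail of V genes with few counts. At least 1 count was found for 99, 102 and 116 V genes in libraries 1, 2 and 3, and at least 10 counts for 10, 29 and 22. Of the 213 V genes, 56 (26.3%) had no count in any library, among them 36 heavy and 20 kappa genes. The floor of 3 counts was reached in all 3 libraries by 24 V genes (4 heavy, 17 kappa and 3 lambda), in 2 libraries by 25, in 1 library by 46 and in none by 118. Taken in pairs, whatever the remaining library held, libraries 2 and 3 shared 39 genes at the floor, libraries 1 and 3 shared 32 and libraries 1 and 2 shared 26. Each of these counts includes the 24 genes found in all 3. Of the 46 V genes with 10 or more counts in some library, 33 had them in 1 library, 11 in 2 and 2 in all 3. The last pair were Igkv6-15 and Iglv1. The same splits, by floor and by 10 counts, are not given here for all genes, so they describe the V genes alone.

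Each library had its own leading heavy V gene. Ighv4-1, the 1 gene of its family in the data, had 207 counts in library 1, 0 in library 2 and 72 in library 3 (29.9 ± 32.5 CPM). It thus led library 1 with 38.4% (34.3 to 42.7) of heavy V counts, while its 0 of 900 counts in library 2 allows a share of up to 0.333%. It was at least 71.3-fold higher in library 1 than in library 2 against the floor of 3 counts per library (chi-square, adjusted p = 3.33e-48). Ighv9-4 led library 2 and had 2, 192 and 1 counts in libraries 1, 2 and 3 (20.1 ± 34.1 CPM), which was 21.3% (18.7 to 24.2) of heavy V counts in library 2. Nearly all of its counts were in that library, and the ratio of library 2 to library 3 was 167 (29.6 to 6630; adjusted p = 8.74e-72). Ighv3-6 led library 3 with 6, 3 and 82 counts in libraries 1, 2 and 3, or 21.2% (17.2 to 25.6) of heavy V counts in library 3 (10.4 ± 15.7 CPM). It was 31.4-fold (10.4 to 156) higher in library 3 than in library 2 (adjusted p = 5.47e-31).

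The other heavy V genes among the leading 8 were Ighv5-9-1, Ighv5-4, Ighv1-9, Ighv5-17 and Ighv1-81. Ighv5-9-1 had 136, 82 and 1 counts in libraries 1, 2 and 3, and Ighv1-9 had 105, 64 and 7. Both were high in libraries 1 and 2 and low in library 3, with a ratio of library 1 to library 3 of 122 (21.6 to 4861) for Ighv5-9-1 and 13.5 (6.32 to 34.3) for Ighv1-9 (adjusted p = 2.18e-23 and 7.53e-15). Ighv5-4 had 1, 164 and 15 counts, Ighv5-17 had 2, 75 and 3, and Ighv1-81 had 2, 71 and 2. These 3 genes were high in library 2. Ighv1-78 also had counts in library 2 alone, 51 against 0 in each of the others, which was at least 16.5-fold higher than the floor of 3 counts in library 1 (adjusted p = 8.01e-19). Per length, the mean level of the leading heavy genes was 72.2 CPM per kb for Ighv4-1, 57.4 for Ighv9-4, 55.0 for Ighv5-9-1 and 52.2 for Ighv1-9, and their SD over the libraries was nearly as large as or larger than each mean.

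Igkv6-15 was the V gene with the highest mean level and the 1 kappa V gene with 10 or more counts in every library. It had 335, 313 and 121 counts in libraries 1, 2 and 3 (104.5, 96.96 and 42.1 CPM, mean 81.2 ± 34.0, 234 CPM per kb). Libraries 1 and 2 were close and library 3 was lower, 2.49-fold (2.01 to 3.09) below library 1 (adjusted p = 1.75e-16). The difference rested on library 3, since libraries 1 and 2 alone gave an adjusted p of 0.440. Igkv6-15 made up 34.9% (31.9 to 38.0) of kappa V counts in library 1, where it led. Libraries 2 and 3 were led by Igkv5-39, which had 0, 375 and 143 counts in libraries 1, 2 and 3 (55.3 ± 58.3 CPM, 159 CPM per kb). It gave 18.3% (16.6 to 20.02) and 15.98% (13.6 to 18.5) of kappa V counts in libraries 2 and 3, while 0 of 960 in library 1 allows a share of up to 0.313%. Its level was at least 121-fold higher in library 2 than the floor of 3 counts in library 1 (adjusted p = 2.45e-80).

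Each library also held kappa V genes that were sparse in the others. In library 1 these were Igkv19-93, with 301, 13 and 9 counts in libraries 1, 2 and 3, and Igkv1-110, with 142, 6 and 6. Igkv19-93 was 30.05-fold (15.6 to 66.4) higher in library 1 than in library 3 (adjusted p = 3.12e-106), and without library 1 its difference was no longer called (adjusted p = 0.782). In library 2 they were Igkv1-117 with 1, 242 and 10 counts, Igkv4-63 with 2, 193 and 3, Igkv4-50 with 0, 160 and 1, Igkv12-46 with 8, 119 and 8, and Igkv17-121 with 0, 125 and 5. Igkv4-63 was 93.4-fold (25.5 to 777) higher in library 2 than in library 1 (adjusted p = 1.20e-70), and Igkv4-50 at least 51.6-fold higher than the floor of 3 counts in library 1 (adjusted p = 9.67e-61). In library 3 they were Igkv8-24 with 2, 7 and 120 counts and Igkv10-96 with 9, 18 and 96, the last named after its values were seen. Igkv8-24 was 66.8-fold (18.1 to 558) higher in library 3 than in library 1 (adjusted p = 3.70e-49).

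**Figure D1:**
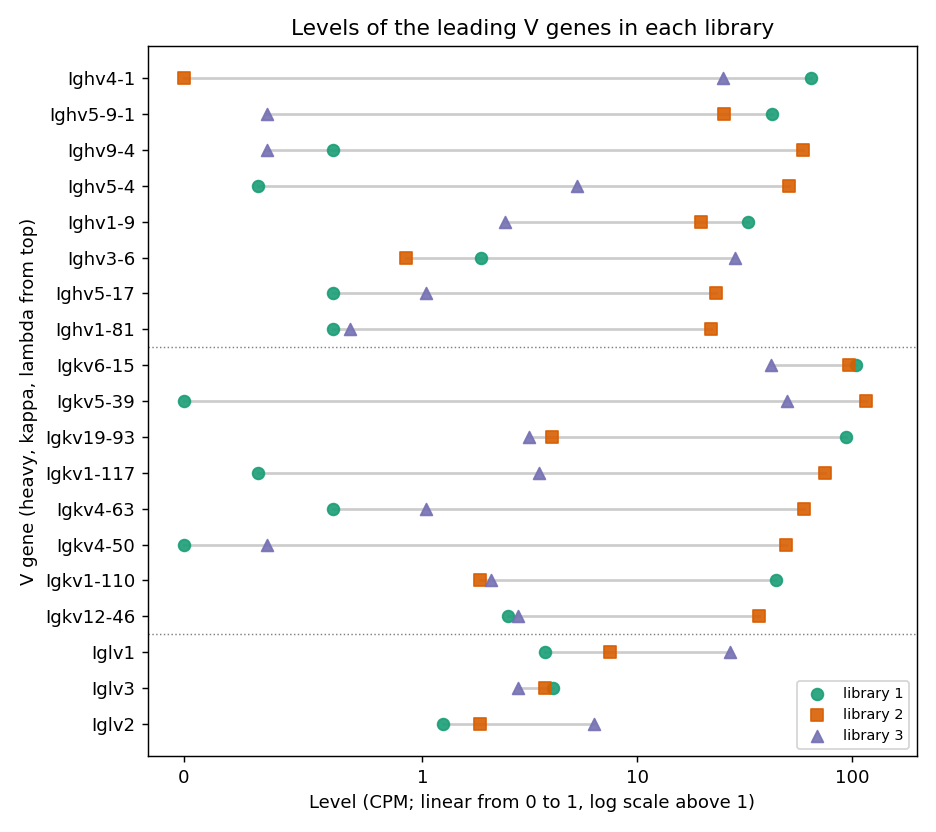
Level in CPM of the 8 heavy and 8 kappa V genes with the highest mean and of the 3 lambda V genes, each point 1 library (circle library 1, square library 2, triangle library 3) and the grey line the range; the axis is linear from 0 to 1 CPM and logarithmic above. Igkv6-15 and Iglv3 have the shortest ranges, whereas Ighv4-1 stands at 0 in library 2 and Igkv5-39 and Igkv4-50 at 0 in library 1.

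A pair of near copies, Igkv1-117 and Igkv1-110, were high in different libraries. Both lie on the plus strand, Igkv1-117 at chr6:68121046-68121827 and Igkv1-110 at chr6:68270485-68271267, and their 359 annotated coding bases (GENCODE M21, GRCm38) are 97.2% identical. The 300 bases from base 60 to the end are shown 5′ to 3′, since they hold all 10 bases that differ, which are in capitals.
Igkv1-117: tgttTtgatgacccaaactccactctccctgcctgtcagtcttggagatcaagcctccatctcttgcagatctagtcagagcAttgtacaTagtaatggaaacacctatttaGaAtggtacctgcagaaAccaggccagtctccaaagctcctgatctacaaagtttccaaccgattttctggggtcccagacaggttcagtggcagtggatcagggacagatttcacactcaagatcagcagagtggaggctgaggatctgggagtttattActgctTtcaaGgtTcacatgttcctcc
Igkv1-110: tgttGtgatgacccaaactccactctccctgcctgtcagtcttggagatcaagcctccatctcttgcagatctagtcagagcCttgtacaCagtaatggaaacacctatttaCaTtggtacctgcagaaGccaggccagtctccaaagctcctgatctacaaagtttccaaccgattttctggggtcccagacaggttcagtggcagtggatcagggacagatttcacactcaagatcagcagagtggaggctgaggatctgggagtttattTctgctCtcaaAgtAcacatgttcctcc

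Of the 50-base windows of the pair, 43.5% of those in Igkv1-117 and 44.2% of those in Igkv1-110 also occur in another annotated V gene or V pseudogene. Igkv1-117 had 1 and 242 counts in libraries 1 and 2, and Igkv1-110 had 142 and 6. The ratio of library 2 to library 1 was 234 (41.7 to 9291) for Igkv1-117 (adjusted p = 1.77e-85), and that of library 1 to library 2 was 24.4 (10.96 to 67.7) for Igkv1-110 (adjusted p = 4.16e-48).

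Among the lambda V genes, Iglv1 carried the high lambda share of library 3. It had 12, 24 and 78 counts in libraries 1, 2 and 3 (12.8 ± 12.6 CPM) and was 7.23-fold (3.92 to 14.6) higher in library 3 than in library 1 (adjusted p = 1.33e-15). Without library 3 the difference was not called (adjusted p = 0.170). Iglv2 had 4, 6 and 18 counts, with library 3 again the highest, but its mean count was too low for the test. When genes averaging 5 or more counts were tested it was called (adjusted p = 0.00426), as it was with no filter (0.00575), without library 1 (0.0361) and without library 2 (0.0193). Iglv3 had 13, 12 and 8 counts, was highest in library 1, and was not called (adjusted p = 0.789, ratio of library 1 to library 3 1.46, interval 0.561 to 4.06). The interval for Iglv3 thus includes both no difference and a 4.06-fold one. Of the lambda constant genes Iglc1, Iglc2 and Iglc3, values were found for Iglc2 alone. It had 55, 87 and 108 counts and was highest in library 3 (adjusted p = 0.000115). Which constant gene each lambda V gene was joined to was not tested. Iglv1 is overlapped by the antisense gene 2010309G21Rik, which was not analysed here, and without a stated strand setting reads from the pair cannot be told apart.

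By family, that is by the number after the chain prefix of a symbol, the heavy V counts fell mainly on Ighv1, Ighv5 and Ighv4. Ighv1, the largest mouse heavy family, had 142, 299 and 148 counts in libraries 1, 2 and 3, which was 26.3% (22.7 to 30.3), 33.2% (30.1 to 36.4) and 38.2% (33.4 to 43.3) of heavy V counts. Its mean share of 32.6 ± 5.97% was spread over 37 of its 53 genes, and it was present in every library. Ighv5 had 144, 324 and 28 counts, or 26.7%, 36.0% and 7.24% (mean 23.3 ± 14.7%), and was low in library 3. Ighv4 followed its single gene with a mean of 19.0 ± 19.2%. Ighv9 had 8, 199 and 5 counts and Ighv3 6, 3 and 83, so that Ighv9 was high in library 2 and Ighv3 in library 3. Ighv9-4 held 92.0% of the Ighv9 counts summed over the libraries and Ighv3-6 98.9% of those of Ighv3. Ighv6 was steadier, with 16, 35 and 16 counts and a mean share of 3.66 ± 0.615%. Counts were found in 14 of 16 heavy families, and the families without any were Ighv15 and Ighv16.

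Of the 6 leading kappa families, 3 were carried by a single gene. Igkv6 had 346, 339 and 163 counts in libraries 1, 2 and 3, or 36.0% (33.0 to 39.2), 16.5% (14.9 to 18.2) and 18.2% (15.7 to 20.9) of kappa V counts, and Igkv6-15 held 90.7% of them. Igkv5 had 9, 414 and 157 counts, of which Igkv5-39 held 89.3%, and was low in library 1. Igkv19, a family of 1 gene in the data, had 31.4% (28.4 to 34.4) of kappa V counts in library 1 and 0.634% and 1.01% in libraries 2 and 3. The large family Igkv4 had 9, 477 and 24 counts over 20 of its 26 genes, or 0.938%, 23.2% and 2.68%, and was high in library 2, with 38.8% of its counts on Igkv4-63. Igkv8 had 28, 29 and 234 counts, or 2.92%, 1.41% and 26.1%, and was high in library 3, with 44.3% of its counts on Igkv8-24. Igkv1 had 154, 256 and 31 counts, of which Igkv1-117 held 57.4%, and was low in library 3. Counts were found in 18 of 19 kappa families, with none in Igkv7.

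**Figure D2:**
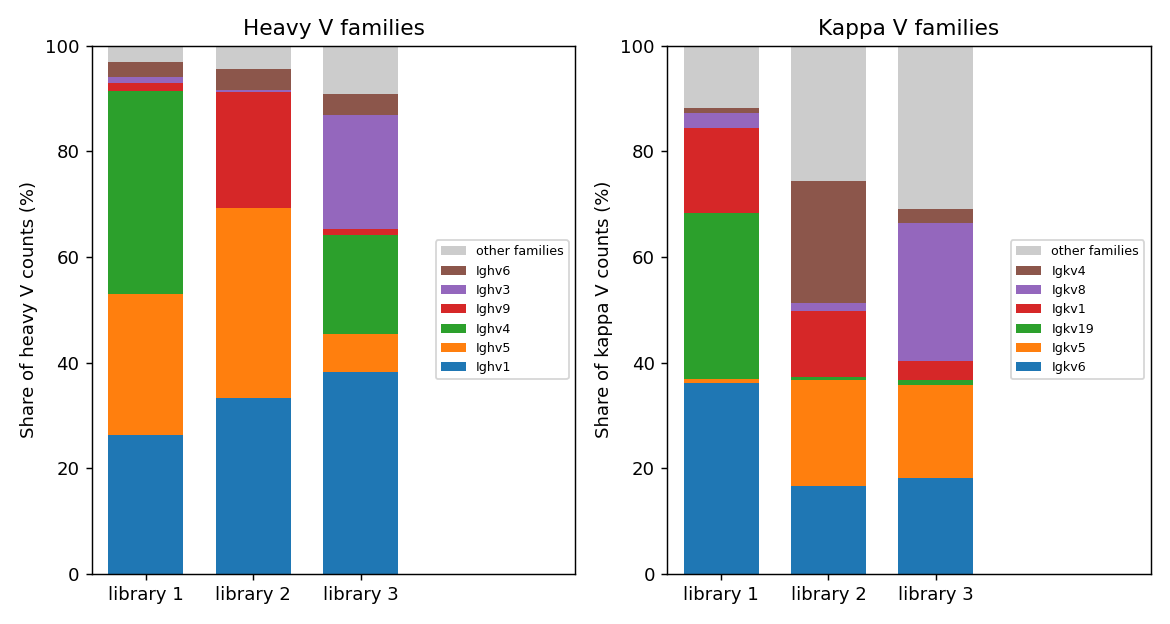
Share of heavy (left) and kappa (right) V counts that fell on each of the 6 families with the highest mean share, with other families in grey; each bar is 1 library and reaches 100%. Ighv4 is missing from library 2, Igkv19 is large in library 1, Igkv4 is large in library 2 and Igkv8 in library 3.

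Between any 2 libraries the lists of 10 leading genes shared 2 or 3 genes in each of the heavy and kappa chains. Ranks down to 10 took in genes with few counts. In library 1, 3 heavy and 5 kappa V genes had 10 or more, and in library 3, 6 heavy V genes did. No overlap of other gene lists is given for comparison. Among the 10 heavy V genes with the most counts in each library, libraries 1 and 2 shared Ighv1-9, Ighv5-9-1 and Ighv6-3, libraries 1 and 3 shared Ighv1-9, Ighv3-6 and Ighv4-1, and libraries 2 and 3 shared Ighv1-9 and Ighv5-4. The 1 heavy gene in all 3 lists was Ighv1-9. Among the kappa V genes, libraries 1 and 2 shared Igkv12-44, Igkv12-46 and Igkv6-15, libraries 1 and 3 shared Igkv10-96, Igkv6-15 and Igkv8-27, and libraries 2 and 3 shared Igkv5-39 and Igkv6-15. Igkv6-15 was the 1 kappa gene in all 3 lists. Ighv6-3, Igkv12-44 and Igkv8-27 are named for this overlap, after their values were seen.

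Along the loci, no stretch led in every library. The heavy V genes lie on chromosome 12 from 113578504 to 116000461, all on the minus strand, with Ighv5-2 nearest to the first constant gene Ighm and Ighv1-85 farthest from it. The 38 genes nearest to Ighm held 67.9%, 37.9% and 31.5% of heavy V counts in libraries 1, 2 and 3, the next 38 genes 27.5%, 41.7% and 44.4%, and the farthest 37 genes 4.64%, 20.4% and 24.03%. Library 1 was thus weighted to the near end, through Ighv4-1 and Ighv5-9-1. The kappa V genes lie on chromosome 6 from 67555497 to 70704177, 36 on the plus and 61 on the minus strand, with Igkv3-1 nearest to the constant gene Igkc and Igkv2-137 farthest from it. The 33 nearest kappa genes held 40.4%, 39.0% and 62.8% of kappa V counts, the next 32 held 4.48%, 38.3% and 7.26%, and the farthest 32 held 55.1%, 22.7% and 29.9%. The middle stretch was therefore high in library 2 alone, where Igkv4-63 and Igkv4-50 lie. The end genes Ighv5-2, Ighv1-85 and Igkv3-1 were sparse. There were 0 counts of Ighv5-2 in every library, 1 count of Ighv1-85 in library 2, and 0, 1 and 1 counts of Igkv3-1. The far kappa end gene Igkv2-137 was not sparse, with 36, 9 and 5 counts, and was among the V genes called. It overlaps the long noncoding RNA gene Gm42889. The 3 lambda V genes lie on chromosome 16 from 19085017 to 19260859 on the minus strand, with Iglv1 first and Iglv2 last along the chromosome.

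**Figure D3:**
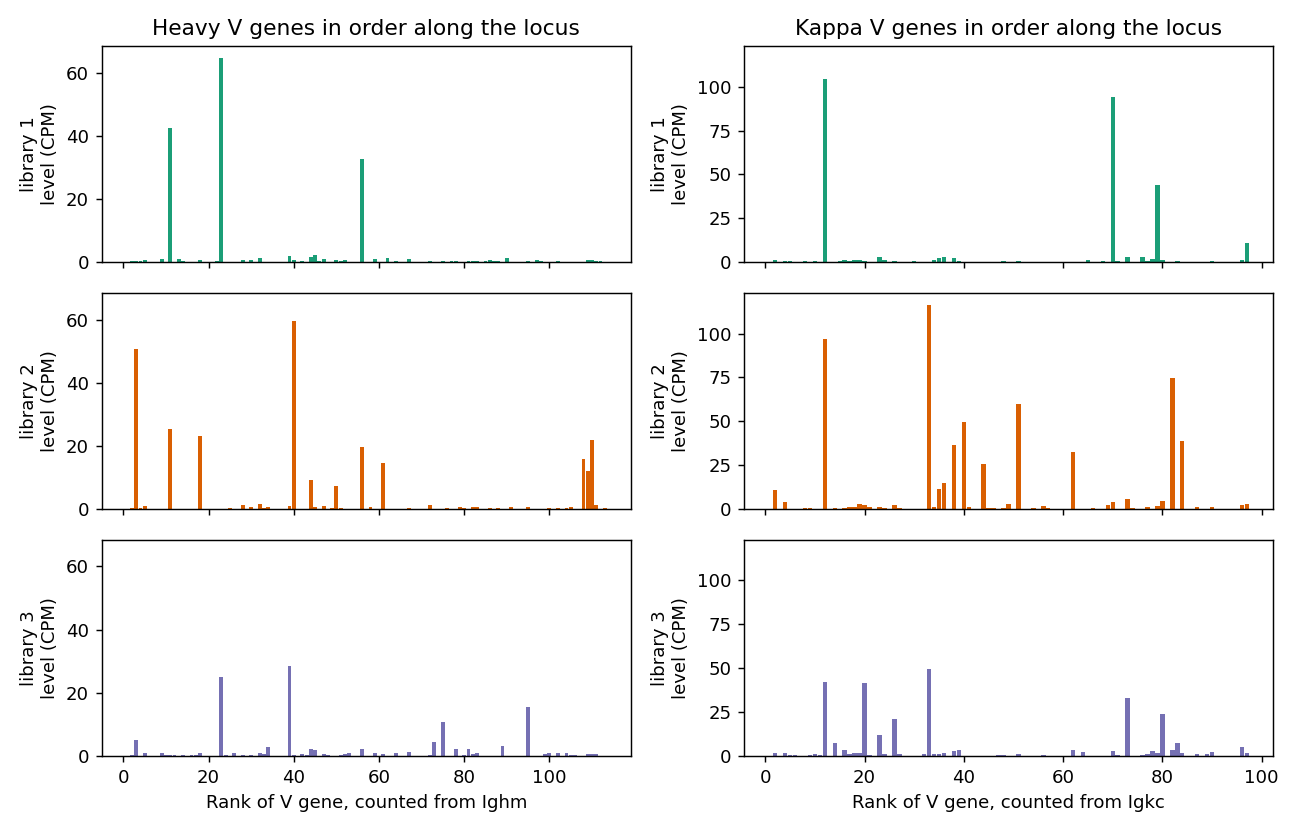
Level in CPM of each heavy (left) and kappa (right) V gene in order of its rank from the constant gene of its locus, 1 row of panels per library with the same scale within a chain. Many of the isolated tall bars stand at different ranks in different libraries. Igkv6-15, at rank 12 of the kappa genes, is tall in all 3. Igkv5-39 is tall in libraries 2 and 3, Ighv4-1 in libraries 1 and 3, and Ighv5-9-1 and Ighv1-9 in libraries 1 and 2.

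Nearly every V gene abundant enough to be tested differed between the libraries. Each gene with a mean count of at least 10 was tested by a chi-square of its 3 counts against Poisson expectation, and 36 of the 213 V genes reached that mean. Of these, 35 were called at an adjusted p under 0.05 (14 of 14 heavy, 20 of 20 kappa, 1 of 2 lambda), against 27.6% of all 10282 genes tested, and 35 V genes and 3971 of all genes had an unadjusted p under 0.05. The 36 are not all V genes: with 25 of them holding 75% or more of their scaled counts in 1 library, they passed the mean mostly through the library where they were high, so the count of calls is no support in itself. Without library 2, where the V genes were most abundant, 20 of 22 tested V genes were called, 17 of them among the 35, against 9.38% (960) of all 10230 genes tested. With no count filter 49 of the 157 V genes with a count were called (31.2%), against 17.7% of all 15112 genes. The just untested genes Igkv1-135 and Iglv2 had a mean count of 9.33, and the least abundant tested ones, Ighv1-47 and Iglv3, had 10.7 and 11. Library 1 held the highest level of 7 called V genes, library 2 of 19 and library 3 of 9, where the shares of all tested genes called in that direction were 11.1%, 8.71% and 7.75%.

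The same limit holds for the sizes of the differences, since genes that pass the mean count through 1 library have large ratios by that choice, and these values describe the 36 tested genes alone. With the ratio taken as highest over lowest library, a call with a ratio of at least 5, or with the lowest at 0, was found for 34 of the 36 tested V genes, against 0.778% (80) of all 10282 genes tested. A ratio of at least 10 was found for 28 of them, against 0.457% (47) of all genes tested. A call with 90% or more of the scaled counts in 1 library was found for 16 V genes, against 0.195% (20) of all genes tested. The 4 other genes with such a call were the constant genes Ighg1 and Ighg2c and the neutrophil granule genes Camp and Ngp. When the spread was set to the common dispersion of the 3 libraries in a negative binomial model (a coefficient of variation of 12.5%), 94 of all genes (0.914%) were called, and 35 of the 94 were V genes. The V genes of the T cell receptor, which T cells rearrange in place of immunoglobulin genes, are given beside them. Of 132 T cell receptor V genes 67 were tested and 8 called, none with a ratio of at least 5, and their median ratio of 1.31 was near that of all tested genes, 1.25. As a description, with the same limit, the median share of counts in the highest library was 89.7% for the tested immunoglobulin V genes, 38.2% for the T cell receptor V genes and 37.1% for all tested genes.

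**Figure D4:**
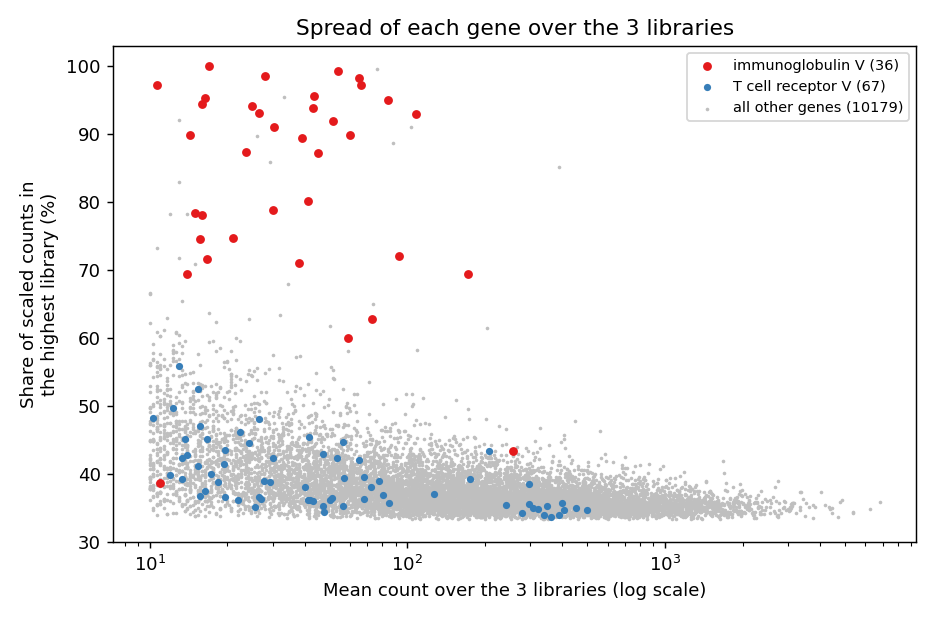
Share of a gene's scaled counts that fell in its highest library (y axis, %) against its mean count (x axis, log scale) for 36 immunoglobulin V genes (red), 67 T cell receptor V genes (blue) and 10179 other genes (grey); equal libraries give the lowest values. All but 2 of the red points, Igkv6-15 and Iglv3, lie above 50%, while the blue points lie among the grey ones.

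The constant genes that are joined to V genes in the mRNA are given for comparison. Ighm, the constant gene of naive B cells, had 3097, 3082 and 2968 counts in libraries 1, 2 and 3, and Igkc had 710, 790 and 667. Ighm was called (adjusted p = 0.00274) and Igkc was not (adjusted p = 0.507). Both had counts per coding base (2.08 and 2.47 at most) near the highest of any gene with at least 300 coding bases, 2.59. Duplicate removal is not stated, and whether it limited these counts was not tested. A small difference between libraries in their counts is for that reason not read as an even level. Igha, the constant gene of IgA, had 4, 1007 and 149 counts and was high in library 2 (adjusted p = 4.42e-297). The IgG constant genes Ighg1, Ighg2b and Ighg2c were high in library 3. Ighg1 had 1, 0 and 228 counts, Ighg2b 25, 8 and 232, and Ighg2c 21, 10 and 279. Ighg3, also an IgG constant gene, went the other way. It had 45, 43 and 19 counts, lowest in library 3, and was not called (chi-square, adjusted p = 0.0508). Constant genes other than Ighm and Ighd, which follow class switching, gave 2.85%, 24.5% and 21.7% of heavy constant counts. Ighd, the constant gene of IgD, had 172, 208 and 298 counts, and Ighe had 0 in every library. Per count of a heavy constant gene there were 0.160, 0.207 and 0.0927 heavy V counts, and per Igkc count 1.35, 2.60 and 1.34 kappa V counts. These ratios are given as values only, since Ighm and Igkc make up most or all of their denominators.

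Markers of B cells and plasma cells were present beside the V genes in every library. All 11 B cell markers reported here, among them Ms4a1, Cd79a and Cd79b, reached the floor in each library, 7 of the 9 that were tested were called (against 27.6% of all genes tested), and their summed level was 266, 347 and 451 CPM in libraries 1, 2 and 3. The B cell sum was highest in library 3, whereas the V sum was highest in library 2. Of the 8 plasma cell markers 6 reached the floor in each library, with 1 of 5 tested called and summed levels of 236, 329 and 267 CPM, but several, such as Xbp1, Prdm1 and Irf4, are also expressed in activated T cells. Jchain, which encodes the joining chain of secreted IgA and IgM, had 92, 389 and 129 counts (adjusted p = 1.75e-46) and was highest in library 2, like Igha and the V sum. The surface marker Sdc1 had 0, 8 and 0 counts and the survival receptor gene Tnfrsf17 had 0, 0 and 1. Of the 5 immature B cell markers Igll1, Rag1 and Rag2 had no count in any library, Vpreb1 had 1, 3 and 3 counts, and the sum was 2.49, 6.81 and 3.48 CPM. Regulatory T cell markers summed to 1607, 1607 and 1703 CPM, and 1 of the 5 was called, Il2ra with 380, 343 and 436 CPM (adjusted p = 5.63e-08). Of 7 T cell markers, which summed to 2435, 2347 and 2473 CPM, Cd4 (adjusted p = 4.86e-09) and Cd3g (adjusted p = 0.0292) were called. Among them Trac, Cd3e and Cd3g had up to 2.59, 2.21 and 2.21 counts per coding base, so the caution given for Ighm and Igkc applies to them too. The part of these other cell types in the V gene counts was not tested.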

How the data were processed

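PolyA plus RNA was sheared and sequenced in 3 libraries, per the labels' protocols. The authors deposited 1 whole-number count per gene, made on mm10 with GENCODE M4 per the file descriptions. Aligner, counting program, strand setting, read length and duplicate removal are not given in the sources used. Names, positions, types and sequences come from GENCODE M21 (GRCm38), to which 22195 identifiers matched and 262 (0.117% of counts) did not. The members and lists were chosen with earlier results of these data known.

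CPM was computed from the deposited counts and their totals. Genes with a mean count of at least 10 were tested with a Pearson chi-square (2 degrees of freedom) that set each gene's 3 counts against a Poisson model, with library sizes of total times TMM factor (0.990, 1.02 and 0.993) from edgeR 4.0.16 in R 4.3.3, and Benjamini-Hochberg adjustment over all 10282 genes at 0.05. Ratios of the highest to the lowest library use these sizes and carry exact conditional binomial intervals. A quasi-likelihood test could not be fitted to 1 group. The test was checked on simulated Poisson counts. These follow the model that the test assumes, so the check does not cover spread beyond counting error. Alternatives were a negative binomial model, size factors of DESeq2 1.42.0, totals alone, different filters, a threshold of 0.01, levels per exon length, V genes without a near-identical partner, thinning and leaving out each library.

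Named V genes were the 8 heavy and 8 kappa genes with the highest mean CPM, all lambda genes, the 10 called genes with the largest ratio (not all printed), the leader of each chain per library and the locus ends. Any other gene was picked with its values in view. Of the planned B cell markers, 1 is not reported here. Scripts ran in Python 3.11.15 with pandas 2.3.3, scipy 1.17.1, numpy 2.4.6 and matplotlib 3.10.9.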

Additional observations from a re-analysis of the deposited data

How the results depend on the processing

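The 35 V gene calls were all kept with DESeq2 size factors, plain totals, the negative binomial model and a threshold of 0.01. Calls numbered 25 of 25 tested with a mean count of at least 20, 39 of 46 with at least 5 and 49 of 157 with no filter. With 1 library left out they numbered 20 to 36, the lowest without library 2, of which 32 without library 1, 17 without library 2 and 25 without library 3 were among the 35. Over all genes the calls fell to 94 of 2836 with the negative binomial model and to 1700 at 0.01, and ranged from 960 to 2014 with 1 library left out. V genes at the floor in every library (24) numbered 60 at 1 count, 2 at 10 counts, 23 after thinning, and 26 to 39 with 1 library left out. The mean kappa share was 62.2% over V genes without a partner at 97% identity or more, and 63.7% to 66.6% with 1 library left out. The mean lambda share was 1.65% without library 3 and 4.70% without library 2. Other shares and levels kept within the SD over the libraries. Of the named genes tested, Igkv6-15, Igkv19-93 and Iglv1 lost their call when 1 library was left out, as given with their values. Others had no test there, since their mean count fell under 10: Igkv1-110 without library 1, Ighv3-6 and Igkv8-24 without library 3, and 9 genes without library 2 (Ighv1-81, Ighv5-17, Ighv5-4, Ighv9-4, Igkv1-117, Igkv12-46, Igkv13-84, Igkv4-50 and Igkv4-63). The ratio of highest to lowest library has no sign, so it shows no change of direction. No paired analysis was possible because the labels give 1 group. Depth limits V genes with few counts, since 118 of 213 stayed below 3 counts in every library.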

Other observations

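The segments that lie between V and constant genes were also counted. The heavy J segments Ighj1, Ighj2, Ighj3 and Ighj4 together had 134, 150 and 104 counts in libraries 1, 2 and 3. None of the 4 was called different between the libraries by the chi-square test (lowest adjusted p = 0.0898, for Ighj3, with 19, 29 and 10 counts), while 27.6% of all genes tested were. With only 4 genes, and 10 to 33 counts per library for Ighj2, Ighj3 and Ighj4, this does not show that J use was even. Of 19 heavy D segments 4 had a count, 11, 9 and 11 in all. The 7 annotated V pseudogenes in the table had no count in any library.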
